A study of Homo sapiens with 16 samples.

Results

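TXNIP, the arrestin-domain genes ARRDC2, ARRDC3 and ARRDC4, and the transcription factor genes MLXIP (MondoA), MLXIPL (ChREBP) and MLX were followed in 8 breast cancer cell lines treated with the marine compound topsentinol L trisulfate (TLT) or with its vehicle. These 7 genes are 7 of the 20502 named genes in the deposited expression matrix, and each was found there by its symbol. They were selected on the change of TXNIP with TLT, which was lower in every line, so their own changes with TLT are given as a description, without p-values. All 7 had a mean value of at least 10 over the libraries, the minimum set for testing a gene.

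The study isolated TLT, a sterol that carries sulfate groups, from a *Topsentia* sponge and asked how it acts in basal-like and claudin-low breast cancer. Of the 8 established human lines, MDA-MB-468, HCC70, HCC1395 and HCC1143 are basal-like and MDA-MB-436, HCC38, MDA-MB-231 and MDA-MB-157 are claudin-low, as listed in the study, since the labels name no subtype. Each line gave 1 library after 6 h with TLT at a dose labelled as the EC75 and 1 library after 6 h with DMSO, which makes 16 libraries without replicates within a line. All cells had 5 to 20 passages, were seeded in 6-well plates the day before and received 5% fetal bovine serum during the treatment. The medium was DMEM or RPMI, and the sources used here give neither which line was kept in which medium nor the glucose in it, nor whether the RNA dose was set per line.

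MondoA and ChREBP are basic helix-loop-helix leucine zipper proteins that bind DNA together with MLX. They become active on their target genes when glucose 6-phosphate accumulates in the cell, at DNA motifs called carbohydrate response elements, which hold a pair of E-box-like sequences separated by a short spacer. TXNIP is the best known target of MondoA, and ARRDC4, a close relative in sequence, is a target as well. The TXNIP protein is an arrestin-fold protein that binds thioredoxin and lowers glucose uptake by acting on glucose transporters at the cell surface, and AMPK, an energy sensor, is known to trigger its degradation. ARRDC4 also lowers glucose uptake, while ARRDC3 and ARRDC2 are known as adaptors that bring NEDD4 family ubiquitin ligases to membrane proteins, and ARRDC3 is known for its loss in basal-like breast cancer. MLXIP is broadly expressed and strong in muscle, and MLXIPL is best known from liver and fat tissue.

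The sequences upstream of TXNIP and ARRDC4 are shown because both genes are known targets of MondoA and the change of TXNIP chose the set. They are the 250 bases before the first annotated start, from RefSeq on GRCh38.p14, 5′ to 3′ in the direction of transcription, with capitals marking each match of CACGNG on either strand. The first lies at chr1:145996580-145996829 on the reverse strand and the second at chr15:97960453-97960702 on the forward strand.
TXNIP: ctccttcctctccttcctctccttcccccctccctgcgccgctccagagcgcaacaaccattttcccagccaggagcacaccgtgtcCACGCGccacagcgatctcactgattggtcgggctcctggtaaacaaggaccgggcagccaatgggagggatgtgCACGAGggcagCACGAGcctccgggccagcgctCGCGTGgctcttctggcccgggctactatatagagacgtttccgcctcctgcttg
ARRDC4: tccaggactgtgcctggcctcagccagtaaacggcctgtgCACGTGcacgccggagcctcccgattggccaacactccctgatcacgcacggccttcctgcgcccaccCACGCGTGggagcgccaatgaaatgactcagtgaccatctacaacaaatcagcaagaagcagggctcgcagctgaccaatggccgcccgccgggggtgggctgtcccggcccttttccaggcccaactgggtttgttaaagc
In the TXNIP sequence the letters CACGAGGGCAGCACGAG began 88 bases before the start, and they match CACGNGNNNNNCACGNG, a pair of E-box-like sequences with a spacer of 5 bases. That spaced pair was found in 20 of 35116 RefSeq windows of 300 bases around gene starts, or 0.057%, while a single CACGNG was found in 30.5% and CACGTG in 7.26% of them. The ARRDC4 window held CACGTG 210 bases before the start and 2 overlapping CACGNG matches, and it held no spaced pair. Among the other genes, the ARRDC2 window held 3 matches of CACGNG, the MLX window held 1, which was CACGTG, and the windows of MLXIP and MLXIPL held 0. The ARRDC3 window held 0 at its first annotated start and 1 at its second start. TXNIP and ARRDC2 also have a second annotated start, where the window held 0 matches of CACGNG. The matches given above for these genes are those at the first start. A match of these letters is a description of the sequence and no evidence of binding.

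Of the 20 genes whose windows held the spaced pair, 16 were tested, TXNIP among them. This group was drawn up after the values of TXNIP were seen. Of the other 15, 3 were lower with TLT at an adjusted p under 0.05 by limma, 2 were higher and 10 did not pass, where 10.9% of all genes tested were lower and 15% higher, and their median log2 fold change was 0.02. The lower genes were TIGD1 (-0.99, standard error 0.149, adjusted p = 0.000812), HSPBAP1 (-0.47, standard error 0.154, adjusted p = 0.0392) and C4orf27 (-0.26, standard error 0.0892, adjusted p = 0.0472), and the higher genes were P4HA1 (0.43, standard error 0.0916, adjusted p = 0.00535) and RAN (0.23, standard error 0.0672, adjusted p = 0.0256). In this group TXNIP thus had the lowest value, which is the feature it was chosen for.

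The values are RSEM gene estimates that the authors scaled so that the 75th percentile of the nonzero genes lies near 1000 in each library, here called normalized values. Depth, estimated from the steps between low values, was 12.2 to 18.8 M reads in the DMSO libraries and 10.6 to 20.1 M in the TLT libraries. The last digit of each library's column name was taken as its sequencing lane, which the labels do not state. By that reading all MDA-MB libraries came from lane 1 and all HCC libraries from lane 2, which kept the DMSO and TLT library of every line together. Among markers of cells that the cultures should lack, the leukocyte gene PTPRC reached at most 1.0 with DMSO and 1.82 with TLT, the T cell gene CD3E at most 1.17 and 0, and the endothelial genes PECAM1 at most 8.09 and 49.8 and VWF at most 16.5 and 11.9. The summed level of the basal keratins KRT5, KRT14 and KRT17 was 1558 to 49874 in the DMSO libraries of the basal-like lines and 12.8 to 376 in those of the claudin-low lines. The summed claudins CLDN3, CLDN4 and CLDN7 overlapped between the subtypes, at 24.3 to 7201 and 17.7 to 692, as did the epithelial markers and the mesenchymal markers VIM and ZEB1, at 255 to 29188 and 5387 to 72754. Within the basal-like lines HCC1395 held only 14.2 units of EPCAM and 14.2 of CDH1 with DMSO, against medians of 4205 and 4293 over the 4 basal-like lines. TLT was compared with DMSO over 14544 genes by limma on log2(value + 1), blocked by cell line, and 3774 genes (25.9%) passed at an adjusted p under 0.05, of which 2188 (15%) were higher and 1586 (10.9%) lower. Quantile normalization moved that split to 1347 higher and 1509 lower. The median log2 fold change over all genes was 0.05.

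TXNIP (chromosome 1, 145438490 to 145442635 on the forward strand of GRCh37, the build of hg19) was lower with TLT in all 8 lines. It had the second lowest of 14544 log2 fold changes, at -1.99 with a standard error of 0.30 and a 95% interval of -2.64 to -1.33, or 3.96-fold lower on the scale of value + 1. Its mean was 2542 ± 3583 (SD, n = 8) with DMSO and 1139 ± 2200 with TLT. The lines differed so widely in level that each is read against its own control. In bulk RNA, fewer cells expressing a gene and less RNA per cell cannot be told apart.

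Before treatment TXNIP ranged from 9.72 to 10886, or 1120-fold. MDA-MB-436 stood highest, followed by HCC70 at 3704, MDA-MB-231 at 2337, MDA-MB-157 at 1369, HCC38 at 1021 and HCC1395 at 966. HCC1143, at 40.9, and MDA-MB-468, at 9.72, formed a separate low range, 23.6-fold and more below HCC1395. Of the 7 steps between neighbours in this order 6 exceeded counting error, while HCC38 and HCC1395 differed by a ratio of 1.06 with a 95% exact counting interval of 0.964 to 1.16. With 1 library per line there is no replicate spread to set beside these steps, and all intervals on single libraries cover counting error only.

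The size of the change differed between lines. In MDA-MB-157 TXNIP went from 1369 to 134, a TLT to DMSO ratio of 0.0980 (95% exact counting interval 0.0803 to 0.119). In HCC70 it went from 3704 to 383, a ratio of 0.103 (0.0931 to 0.114). In HCC1143 it went from 40.9 to 3.60, which are 44 and 3 reads, a ratio of 0.0881 (0.0175 to 0.275). Thus 1 claudin-low and 2 basal-like lines kept 0.0881 to 0.103 of their transcript, from very different starting levels.

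HCC1395 went from 966 to 249, a ratio of 0.258 (0.221 to 0.301). HCC38 went from 1021 to 470, a ratio of 0.460 (0.408 to 0.518). MDA-MB-468 held 12 reads with DMSO and 3 with TLT, a ratio of 0.280 whose interval of 0.0508 to 1.04 includes no change. The smallest changes on the log2 scale were those of MDA-MB-231 and MDA-MB-436, which held the third and the first place in the DMSO order. MDA-MB-436 went from 10886 to 6469, a ratio of 0.594 (0.575 to 0.614), and MDA-MB-231 from 2337 to 1399, a ratio of 0.599 (0.553 to 0.648).

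After treatment the order of the lines had changed. HCC70 moved from the second place to the fourth and MDA-MB-157 from the fourth to the sixth, below HCC1395. MDA-MB-436 remained the highest, 4.62 times above MDA-MB-231, and MDA-MB-468 the lowest, although its 3 reads could not be told from the 3 reads of HCC1143. Both groups overlapped over the 8 lines, since the DMSO level of HCC1143 and MDA-MB-468 lay under the TLT level of the 6 other lines.

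**Figure D1:**
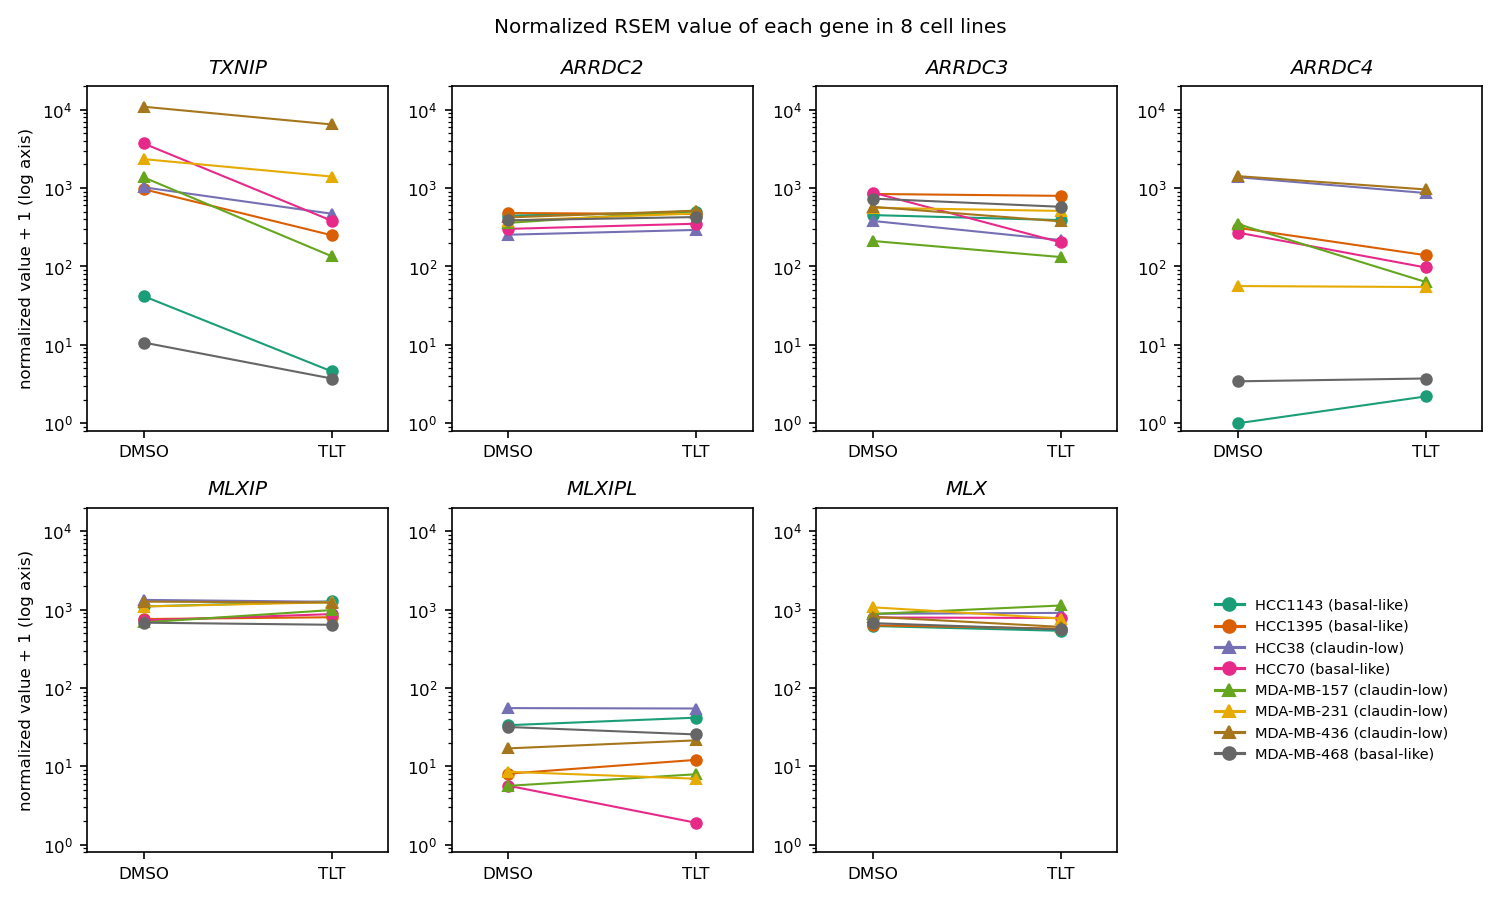
Normalized RSEM value plus 1 on a log axis for each of the 7 genes, with a line joining the DMSO and the TLT library of each of the 8 cell lines (circles basal-like, triangles claudin-low). TXNIP spans 9.72 to 10886 with DMSO and goes down in every line, whereas ARRDC2, MLXIP and MLX stay within a narrow band.

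ARRDC4 (chromosome 15, 98503933 to 98517063, forward strand) was lower with TLT in 6 lines, in 5 of them beyond counting error, and was hardly detected in the other two. MDA-MB-157 went from 347 to 62.5, a ratio of 0.180 (0.132 to 0.241), and HCC70 from 270 to 96.1, a ratio of 0.356 (0.280 to 0.450). HCC1395 went from 310 to 138, a ratio of 0.445 (0.356 to 0.555). These were also lines with a strong change of TXNIP.

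HCC38 went from 1375 to 863, a ratio of 0.628 (0.572 to 0.689). MDA-MB-436 went from 1418 to 959, a ratio of 0.676 (0.619 to 0.738). MDA-MB-231 held 55.3 and 53.7, or 44 and 36 reads, a ratio of 0.971 (0.607 to 1.54). In HCC1143 ARRDC4 had 0 reads with DMSO, which allows up to 3 reads or a value of 2.79, and 1 read with TLT, and MDA-MB-468 had 3 reads in both libraries. In these last lines no change could be detected at this depth.

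Over all lines the log2 fold change of ARRDC4 was -0.64 with a standard error of 0.31 and a 95% interval of -1.31 to 0.03. The estimate includes HCC1143, which contributes 1.14 on the log2 scale from that single read, and it was -0.89 (standard error 0.266) without HCC1143 and -0.38 (standard error 0.271) without MDA-MB-157. It also moved with the pseudocount, to -0.32 at 0.1 and -0.73 at 10. Without MDA-MB-157 and HCC70, the libraries whose summed values rose most with TLT, the value was -0.20 (standard error 0.257) for ARRDC4 and -1.55 (standard error 0.297) for TXNIP, a setting chosen after the data were seen. The mean of ARRDC4 was 472 ± 587 (SD, n = 8) with DMSO and 272 ± 398 with TLT.

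TXNIP and ARRDC4 were low in the same lines. MDA-MB-468 and HCC1143 held the lowest level of both genes with DMSO and with TLT, and MDA-MB-436 held the highest of both. HCC38 and MDA-MB-231 departed from that order, HCC38 with an ARRDC4 level close to that of MDA-MB-436 (ratio 1.03, interval 0.954 to 1.12) and MDA-MB-231 with strong TXNIP and only 44 reads of ARRDC4. As a description over 8 lines, Pearson's r of the log2 levels was 0.857 (Spearman's rho 0.595) with DMSO and 0.890 (rho 0.714) with TLT. These r include HCC1143 (40.9 of TXNIP and 0 of ARRDC4 with DMSO) and MDA-MB-468 (9.72 and 2.43), far below the other lines in both genes. They reflect that gap and do not show that the levels followed each other among the other lines. There, MDA-MB-231 held 2337 and 55.3 with DMSO, and HCC38 held 1021 and 1375. The changes with TLT had an r of 0.294 (rho 0.5). That r includes HCC1143, with -3.19 for TXNIP and 1.14 for ARRDC4 from 0 and 1 reads. MDA-MB-468 also enters it, with 3 reads of ARRDC4 in both libraries. Among the lines where ARRDC4 was well detected, both changes had the same order, from MDA-MB-157 (-3.34 and -2.46) to MDA-MB-231 (-0.74 and -0.04). Correlations without HCC1143 and MDA-MB-468 were not computed, for levels or for changes. The points share cell lines and lanes, and the DMSO and TLT values share their lines. In each of the 8 lines the fall of TXNIP was larger on the log2 scale than that of ARRDC4 or of any other of the 6 genes. TXNIP was chosen for its fall, so this order is no finding. Counting error did not separate every pair. In MDA-MB-436 the TXNIP ratio of 0.594 (0.575 to 0.614) lay within the interval of ARRDC3 (0.565 to 0.748). In MDA-MB-468 the TXNIP interval included no change.

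**Figure D2:**
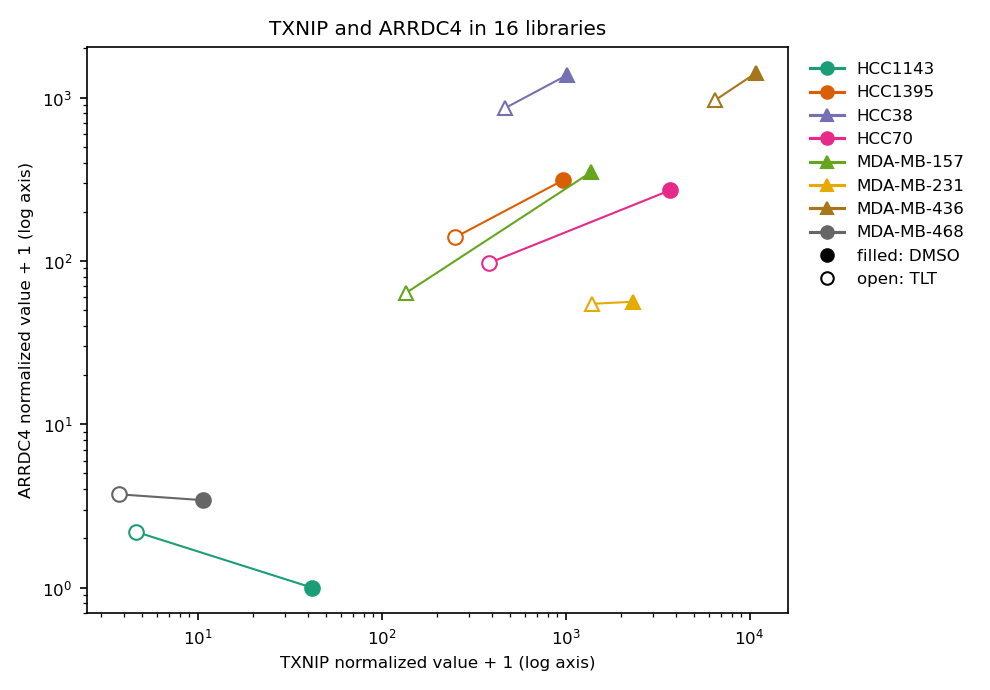
TXNIP against ARRDC4, normalized value plus 1 on log axes, in the DMSO (filled) and TLT (open) library of each of 8 lines, joined by a line. HCC1143 and MDA-MB-468 sit apart at low levels of both genes, and the other 6 lines move left and, except for MDA-MB-231 (55.3 to 53.7), also down.

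ARRDC3 (chromosome 5, 90664448 to 90679134, reverse strand) was lower with TLT in all 8 lines, with a log2 fold change of -0.62, a standard error of 0.19 and a 95% interval of -1.03 to -0.22. HCC70 showed the strongest change, from 875 to 201, a ratio of 0.230 (0.197 to 0.268). HCC38 went from 379 to 216, MDA-MB-436 from 576 to 375 and MDA-MB-157 from 210 to 131, ratios of 0.569 to 0.651. In each of these 4 lines the counting interval of the ratio lay below 1.

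MDA-MB-468 went from 732 to 575 and HCC1143 from 451 to 389, ratios of 0.786 (0.709 to 0.872) and 0.863 (0.747 to 0.995). MDA-MB-231 went from 559 to 510 and HCC1395 from 839 to 794, and for both the counting interval of the ratio included 1. Unlike TXNIP, ARRDC3 was well detected in every line, with 113 to 903 reads, and MDA-MB-468 and HCC1143 were not low in it. Without HCC70 its log2 fold change was -0.41 (standard error 0.116), and without MDA-MB-157 and HCC70 it was -0.37 (standard error 0.107). The antisense gene ARRDC3-AS1 overlaps ARRDC3 by 2969 bases, and reads were counted without strand. Its row, named LOC100129716 in the files, held only 2.32 to 26.0 with DMSO and 0 to 17.1 with TLT.

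ARRDC2 (chromosome 19, 18111941 to 18124911, forward strand) differed little between lines, at 253, 384 and 479 (lowest, median and highest) with DMSO and 291, 469 and 515 with TLT. The TLT value lay above the DMSO value in 7 lines and slightly under it in HCC1395, at 479 and 464. The largest difference was that of MDA-MB-157, from 359 to 515, a ratio of 1.44 (1.24 to 1.67). The log2 fold change was 0.22 with a standard error of 0.09. The sign thus was opposite to that of ARRDC3 and TXNIP, with both groups overlapping over the lines.

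MLXIP, which encodes MondoA (chromosome 12, 122516628 to 122631894, forward strand), stood at 679, 924 and 1326 (lowest, median and highest) with DMSO and at 638, 1106 and 1267 with TLT. It was higher with TLT in 5 lines and lower in 3. The ratio reached 1.44 (1.29 to 1.60) in MDA-MB-157, where it went from 684 to 984, and 1.20 (1.09 to 1.33) in HCC70, from 727 to 873, both of which had strong falls of TXNIP. In both lines the summed values of the library also rose most with TLT. The rise in MDA-MB-157 was shared by ARRDC2 (ratio 1.44) and MLX (ratio 1.28). A link between MLXIP and TXNIP was not tested. Its log2 fold change was 0.13 with a standard error of 0.08 and a 95% interval of -0.05 to 0.31, and it was 0.08 (0.0712) without MDA-MB-157.

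MLX, the partner of both Mondo proteins (chromosome 17, 40719090 to 40725257, forward strand), stood at 616, 799 and 1067 with DMSO and at 534, 683 and 1125 with TLT. It was lower in 6 lines, most so in MDA-MB-231, from 1067 to 766, and in MDA-MB-436, from 808 to 600, ratios of 0.718 (0.642 to 0.802) and 0.742 (0.663 to 0.831). MDA-MB-157 went the other way, from 877 to 1125, a ratio of 1.28 (1.17 to 1.41). The log2 fold change was -0.14 with a standard error of 0.10, and it was -0.21 without MDA-MB-157 and -0.09 without MDA-MB-231. MLX overlaps PSMC3IP on the opposite strand by 930 bases. The value of PSMC3IP itself was -0.06 on the log2 scale (standard error 0.104, adjusted p = 0.720).

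MLXIPL, which encodes ChREBP (chromosome 7, 73007524 to 73038873, reverse strand), was barely detected, at 4.65, 11.8 and 54.4 with DMSO and 0.907, 15.8 and 53.7 with TLT, or 1 to 47 reads per library. HCC38, HCC1143 and MDA-MB-468 held the most of it, with 27 to 47 reads. It was higher with TLT in 4 lines and lower in 4, with a log2 fold change of -0.06 and a standard error of 0.26. All 8 counting intervals of the ratio included 1, so a change of MLXIPL was not detectable at this depth.

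Of the 7 genes, 2 passed the threshold, TXNIP and ARRDC3, both lower, against 10.9% of all genes lower, and TXNIP and ARRDC3 were lower in all 8 lines against 6.55% of all genes. None of the 7 was higher in all 8 lines, which 9.19% of all genes were. Since TXNIP was the ground for the choice and the others were picked with results in view, nothing is read from these counts. Within lane 1, which held the MDA-MB lines, the log2 fold change was -1.59 (standard error 0.368) for TXNIP, -0.74 (0.390) for ARRDC4 and -0.44 (0.159) for ARRDC3. Within lane 2, which held the HCC lines, the same values were -2.38 (0.350), -0.54 (0.410) and -0.80 (0.312). Quantile normalization gave -2.05, -0.68 and -0.56, so that the signs did not depend on the scaling.

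**Figure D3:**
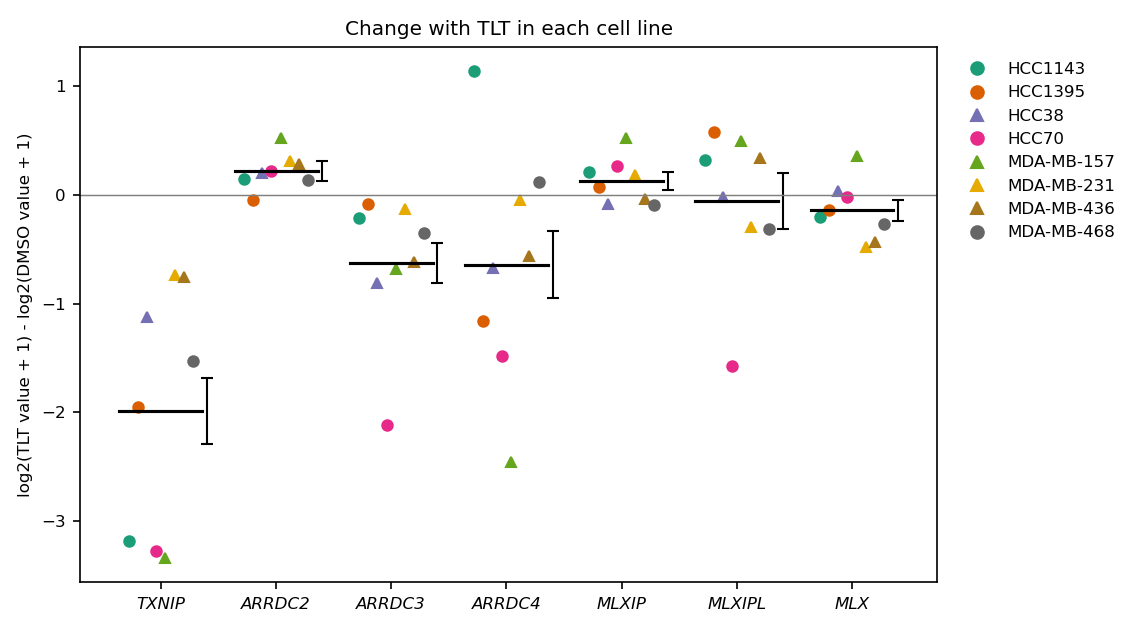
Change with TLT in each of 8 lines for each gene, as log2(TLT value + 1) minus log2(DMSO value + 1), with the fitted mean as a black bar and its standard error beside it (circles basal-like, triangles claudin-low). The TXNIP points run from -0.74 to -3.34, all below 0, and the HCC70 point of ARRDC3 lies at -2.11, apart from the others.

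Next, the change with TLT was compared between 4 claudin-low and 4 basal-like lines. None of 14544 genes differed in response at an adjusted p under 0.05 by limma (0%), and 272 (1.87%) did at an unadjusted p under 0.05. TXNIP had a mean log2 change of -2.48 in basal-like and -1.49 in claudin-low lines, a difference of 1.0 with a standard error of 0.56 and an interval of -0.22 to 2.21 (adjusted p = 1). ARRDC4 had a mean change of -0.35 in basal-like and -0.93 in claudin-low lines, a difference of -0.59 with a standard error of 0.62 and an interval of -1.93 to 0.75 (adjusted p = 1). The difference of TXNIP was 1.61 (standard error 0.406, adjusted p = 0.980) without MDA-MB-157 and 0.46 with a pseudocount of 10. That of ARRDC4 was -0.08 without MDA-MB-157, -0.09 without HCC1143, -0.88 without MDA-MB-231, -0.97 without HCC70 and -0.31 with a pseudocount of 10. The basal-like mean of ARRDC4 includes HCC1143 (1.14, from 0 and 1 reads) and MDA-MB-468 (0.12, from 3 and 3 reads), where no change could be detected. The other basal-like lines, HCC1395 and HCC70, had -1.16 and -1.48, and the claudin-low lines ran from -2.46 to -0.04. The smaller basal-like mean thus rests on lines with hardly any reads. The intervals leave room for differences as large as the changes themselves. For ARRDC2, ARRDC3, MLXIP, MLXIPL and MLX the differences ran from 0.03 to 0.38, all with an adjusted p of 1. Leaving out HCC70 alone turned the difference of ARRDC3 from 0.13 to -0.35.

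The levels without TLT were then compared between the subtypes in the 8 DMSO libraries, a comparison that had no part in the choice of the genes. By the lane reading above, all claudin-low lines but HCC38 lay in lane 1 and all basal-like lines but MDA-MB-468 in lane 2. The fit had no term for lane, so subtype and lane cannot be fully told apart. The comparison of responses has the same limit, although there both libraries of a line shared a lane. Over all genes 11 passed (0.0756%), and 1478 (10.2%) had an unadjusted p under 0.05. The count of 11 moved to 221 without HCC1395 and to 0 without MDA-MB-157 or without MDA-MB-436. None of the 7 genes passed in the comparison of all lines. TXNIP was 3.61 higher on the log2 scale in the claudin-low lines (standard error 1.72, interval -0.28 to 7.50, adjusted p = 0.521), and ARRDC4 was 4.25 higher (standard error 1.97, interval -0.18 to 8.68, adjusted p = 0.509). With a line left out the difference of TXNIP ran from 2.20 (without MDA-MB-468) to 5.01, and that of ARRDC4 from 2.74 (without HCC1143) to 5.50. All 4 claudin-low lines held at least 1021 of TXNIP, whereas the basal-like lines held 9.72, 40.9, 966 and 3704. The spread was wider within the basal-like lines, in which MDA-MB-468 and HCC1143 were low. ARRDC3 went the other way, with a difference of -0.81 (standard error 0.42, interval -1.73 to 0.12, adjusted p = 0.545), which was -0.50 without MDA-MB-157. For ARRDC2, MLXIP, MLXIPL and MLX the adjusted p was 0.636 to 0.995.

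Among the 5 genes whose levels were most like TXNIP over the 16 libraries, by Pearson's r of the log2 values, were CREB5 (0.890), THBD (0.881), which encodes thrombomodulin, FSTL1 (0.877) and STK39 (0.874). Among the 5 most like ARRDC4 were HMGN5 (0.920), TCEAL8 (0.919), SPATA6 (0.912) and AK3 (0.888). The libraries come in pairs of a line, so these values mostly rank differences between lines. By the change over the 8 lines, the genes most like TXNIP were HERPUD2 (0.964), SMARCAD1 (0.962), C7orf60 (0.956), FCHSD2 (0.945) and YIPF5 (0.942), and those most like ARRDC4 were NOM1 (0.945), SRP68 (0.943), MAK16 (0.930), MED18 (0.921) and WDR43 (0.917). No gene stood in both lists of a member, and with 8 points among 14544 genes a high r is no finding by itself. The changes of ARRDC4 include 1.14 in HCC1143, from 0 and 1 reads, and 0.12 in MDA-MB-468, from 3 and 3 reads. Its list by change thus rests in part on lines where no change could be detected.

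Other genes known to respond to glucose through MondoA or ChREBP were listed to set beside TXNIP. Of these 16, 11 were tested, and 3 were higher, 0 lower and 8 did not pass, with a median log2 fold change of 0.23. The 3 calls stand against 25.9% called over all genes, a share close to that of the list. ACLY, which makes cytosolic acetyl-CoA for lipid synthesis, rose from 4940 ± 1428 to 7432 ± 2282 (SD, n = 8), with a change of 0.59 on the log2 scale (standard error 0.11, adjusted p = 0.00254, limma), higher in 7 of 8 lines, and with 0.37 under quantile normalization (adjusted p = 0.0185). GPD1, which makes glycerol 3-phosphate, rose by 1.52 (standard error 0.31, adjusted p = 0.00403) at low levels of 1.17, 3.80 and 18.6 (lowest, median and highest) with DMSO and 3.63, 17.3 and 29.1 with TLT. GPD1 passed the minimum level only through its TLT libraries, with a mean of 6.36 with DMSO and 16.6 with TLT, so its call is no support for the list. RGS16, a regulator of G protein signaling, rose by 1.35 (standard error 0.29, adjusted p = 0.00563) in 8 of 8 lines, most visibly in HCC70, from 46.7 to 194. Several lines held few reads of RGS16 with DMSO and TLT, at 0 and 3 in HCC1143, 1 and 8 in MDA-MB-157 and 5 and 6 in MDA-MB-231. In HCC1395 it held 39 and 38 reads, at normalized values of 39.4 and 46.9. With a pseudocount of 10 the changes were 0.72 for GPD1 and 0.81 for RGS16. The lipogenic genes FASN (0.23, adjusted p = 0.129), ACACA (-0.13, adjusted p = 0.337) and ELOVL6 (-0.04, adjusted p = 0.893) did not pass, nor did KLF10 (0.17, adjusted p = 0.365) and HBP1 (0.39, adjusted p = 0.0727). PKLR, G6PC, THRSP, GCKR and FGF21, best known from liver, were under the minimum and untested.

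In the thioredoxin system, which includes the TXNIP partner thioredoxin and the enzymes around it, 8 of 14 tested genes were higher, 1 was lower and 5 did not pass, with a median of 0.22, but under quantile normalization 0 were higher and 3 lower, with a median of 0.04. Over all genes 15% were higher and 10.9% lower, or 1347 and 1509 genes under quantile normalization. TXN, thioredoxin itself, had a change of 0.29 on the log2 scale (standard error 0.07, adjusted p = 0.0131, limma) and was higher in 8 of 8 lines, with 5924 ± 2453 (SD, n = 8) and 7474 ± 3997, but 0.04 under quantile normalization (adjusted p = 0.507). The peroxiredoxins PRDX1 (0.27, adjusted p = 0.0083) and PRDX4 (0.27, adjusted p = 0.0167), which reduce peroxides with electrons from thioredoxin, had values of 0.01 and 0.14 under quantile normalization and did not pass there. The gene that fell was RRM2, a subunit of ribonucleotide reductase, from 7799 ± 2588 to 5103 ± 1583, with a change of -0.62 on the log2 scale (standard error 0.10, adjusted p = 0.0012) in 8 of 8 lines and -0.85 under quantile normalization. Leaving out lines brought the count of 9 calls to 5 without HCC1143, 4 without HCC70, 5 without MDA-MB-157, 3 without MDA-MB-436 and 4 without MDA-MB-468.

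Among glucose transporters and hexokinases, 2 of 11 tested genes were higher, 1 was lower and 8 did not pass, with a median of 0.27. This is close to the 25.9% called over all genes. SLC2A9, which mainly carries urate, rose in 8 of 8 lines by 3.22 (standard error 0.37, adjusted p = 0.000176, limma), from 0, 4.09 and 43.2 (lowest, median and highest) to 13.7, 66.9 and 131, and by 1.96 with a pseudocount of 10. In HCC1395 it went from 0 to 19 reads and in MDA-MB-436 from 2 to 63. SLC2A8, an intracellular transporter, fell in 8 of 8 lines, from 232 ± 99.1 to 137 ± 53.7 (SD, n = 8), a change of -0.71 on the log2 scale (standard error 0.13, adjusted p = 0.00242). SLC2A1, the broadly expressed transporter GLUT1 on whose surface level TXNIP acts, had 2322 ± 654 and 3071 ± 1310, a change of 0.33 on the log2 scale (standard error 0.11, adjusted p = 0.0464), higher in 6 of 8 lines. Its call was lost without HCC1143 (adjusted p = 0.0552), HCC1395 (0.112), HCC70 (0.112), MDA-MB-157 (0.102), MDA-MB-231 (0.068) or MDA-MB-436 (0.0607), and under quantile normalization, where the change was 0.17 (0.247), without trend (0.104), without a filter (0.0576) and with a pseudocount of 0.1 (0.0597). Without HCC38 5 genes of the list passed. SLC2A3 (0.44, adjusted p = 0.126), HK1 (0.27, adjusted p = 0.0643) and HK2 (0.32, adjusted p = 0.0758) did not pass. SLC2A2, SLC2A4, SLC2A5 and HK3 were under the minimum.

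Of the other arrestin genes, 2 of 5 tested were higher, 0 lower and 3 did not pass, against 15% higher and 10.9% lower over all genes, with a median of 0.07. VPS26A, an arrestin-fold subunit of the retromer complex, rose by 0.28 (standard error 0.06, adjusted p = 0.00841, limma) in 8 of 8 lines, and by 0.12 under quantile normalization, where it did not pass. ARRDC1, which acts in the budding of vesicles from the cell surface, was 398 ± 186 and 512 ± 198 (SD, n = 8), a change of 0.39 on the log2 scale (standard error 0.13, adjusted p = 0.0426), higher in 6 of 8 lines. That call was lost without HCC1395 (adjusted p = 0.103), HCC70 (0.0779), MDA-MB-157 (0.0749), MDA-MB-436 (0.122) or MDA-MB-468 (0.073). It was also lost with a pseudocount of 0.1 (0.051), without a filter (0.0525) and without trend (0.0722). The same held in the MDA-MB lines only (0.0947) and in the HCC lines only (0.422). The beta-arrestin genes ARRB1 (-0.16, adjusted p = 0.386) and ARRB2 (0.07, adjusted p = 0.599) did not pass.

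The NEDD4 family ubiquitin ligases, which dock on arrestin-domain proteins, had 1 of 9 genes higher, 2 lower and 6 that did not pass, against 15% higher and 10.9% lower over all genes, and a median of 0.07. NEDD4L rose from 1116 ± 785 to 1793 ± 1139 (SD, n = 8), a change of 0.64 on the log2 scale (standard error 0.13, adjusted p = 0.00351, limma), higher in 7 of 8 lines. ITCH, a ligase known to ubiquitinate TXNIP, fell in 8 of 8 lines, from 2500 ± 940 to 1997 ± 748, a change of -0.33 on the log2 scale (standard error 0.08, adjusted p = 0.0108). WWP2 fell by 0.42 on the log2 scale (standard error 0.10, adjusted p = 0.0118) and was lower in 7 of 8 lines.

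In the MYC and MAX network, whose proteins share E-boxes and, in part, the partner MLX with the Mondo proteins, 2 of 9 tested genes were higher, 1 was lower and 6 did not pass, against 15% higher and 10.9% lower over all genes, with a median of -0.09. MGA, a large MAX partner that represses transcription, fell in 8 of 8 lines, from 1231 ± 340 to 681 ± 291 (SD, n = 8), a change of -0.98 on the log2 scale (standard error 0.21, adjusted p = 0.00615, limma). MXD1, a MAX partner that also binds MLX, rose from 504 ± 133 to 820 ± 290, a change of 0.67 on the log2 scale (standard error 0.17, adjusted p = 0.0122), higher in 7 of 8 lines. MXI1 rose by 0.37 (standard error 0.10, adjusted p = 0.0172) in 8 of 8 lines. MYC had a log2 fold change of -0.11 (adjusted p = 0.613) and MAX of 0.14 (adjusted p = 0.198). MYCN was under the minimum. No gene of the 6 lists differed in response between the subtypes, and all their adjusted p for that difference were 1.

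**Figure D4:**
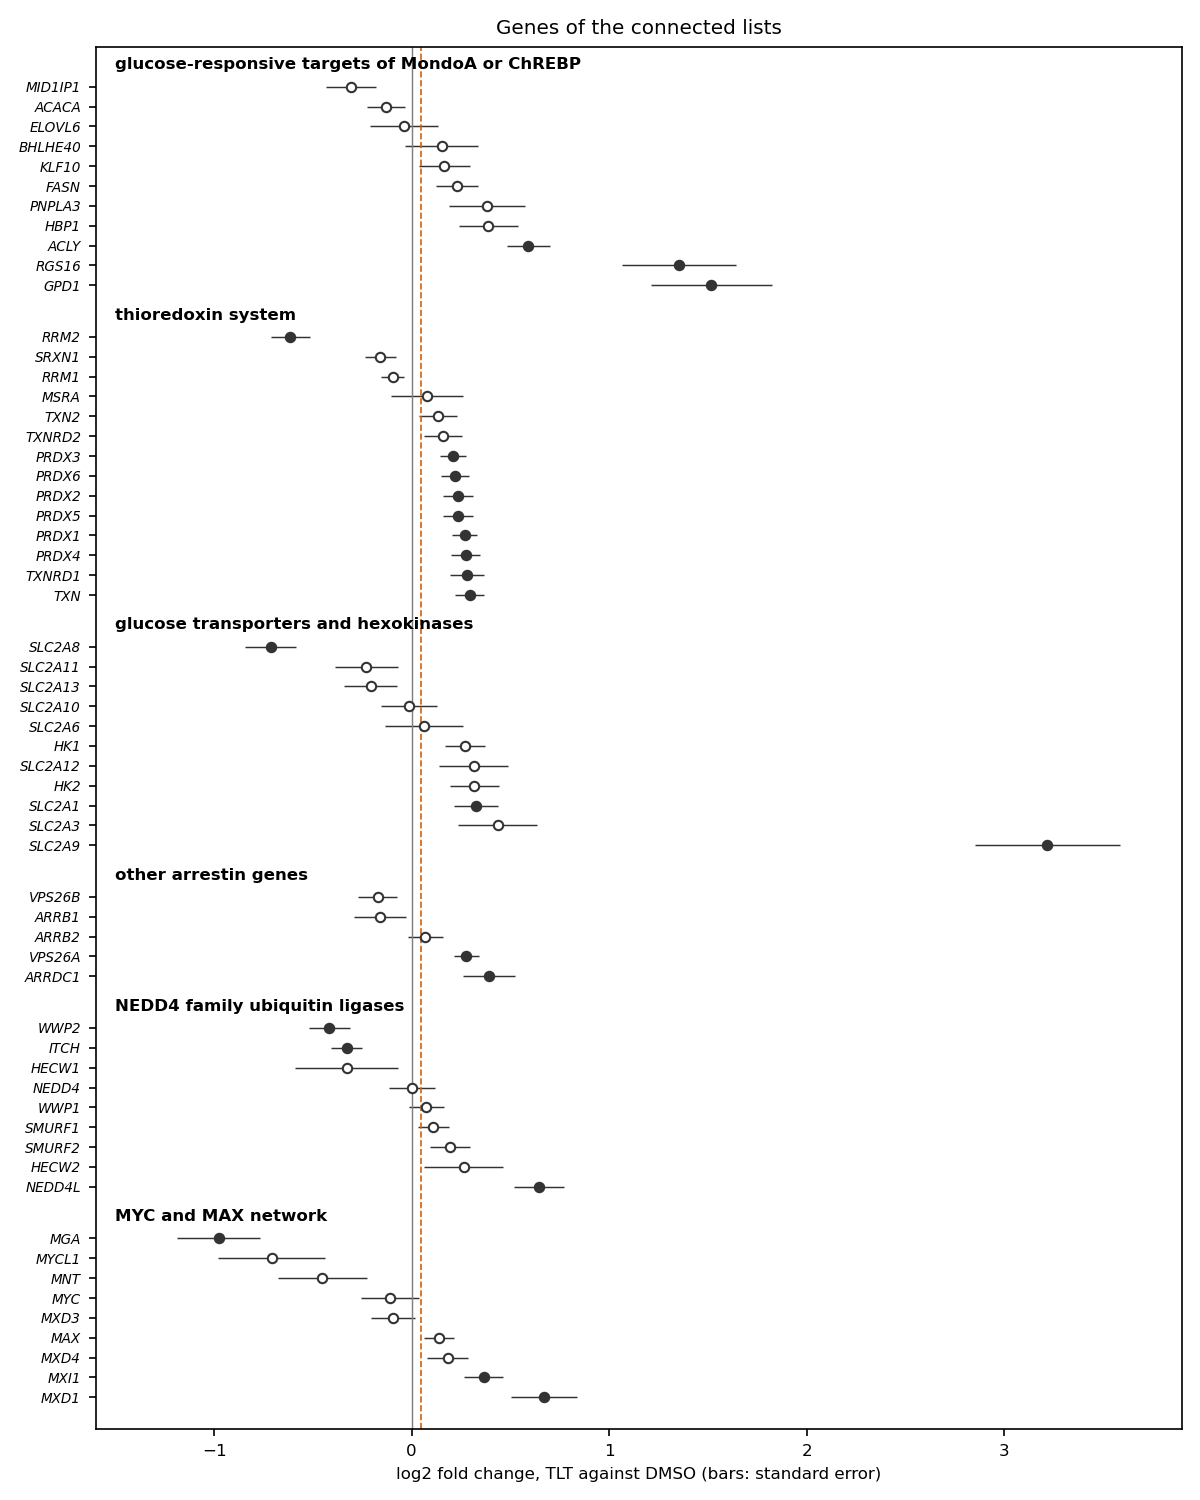
Log2 fold change with its standard error for each tested gene of the 6 connected lists, TLT against DMSO over 8 pairs of libraries. Filled points passed an adjusted p under 0.05, and the dashed line marks the median of all genes, 0.05. SLC2A9 lies farthest right at 3.22 and MGA farthest left at -0.98.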

How the data were processed

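RNA from 8 lines was sequenced by the authors with oligo(dT)-selected TruSeq libraries without strand marks (HiSeq, single reads of 50 cycles). Alignment to hg19 by MapSplice and gene estimation by RSEM were done by the authors, who deposited the values after upper quartile scaling as a normalized signal. DESeq2 1.4.5 was run by the authors on other counts, which were not used here. A second deposited sheet holds the same values, and a sheet of fold changes per line holds the authors' own comparisons, so neither was used. Of 20531 rows, 29 without a gene name (0.0398% of the signal) were left out.

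Genes with a mean of at least 10 (14544) were fitted on log2(value + 1), which understates the change of low genes, by limma 3.58.1 (R 4.3.3), with terms for treatment and cell line, robust moderation with a trend and a threshold of 0.05 on Benjamini-Hochberg adjusted p. Pairs come from the cell line in the labels, and paired libraries deviated together, with correlations of 0.900 to 0.954. The design foresaw a count test only for counts. None was run, as 83.0% to 85.0% of values under 60 were whole reads within 0.01. The fit was also run on simulated data, with an outcome that is not reported here. Alternatives were no block, other scalings, pseudocounts and filters, no trend, lines left out and each lane alone.

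Nothing states that the lines were grown more than once, so p-values measure the spread between these 8 lines. The genes and the 6 lists were chosen with earlier results of these data known. Named were all 7 genes, up to 4 called genes of each list by smallest p, and the 5 genes most like TXNIP and ARRDC4 in level and in change, of which some are not reported here, as is 1 cell marker. Genes of the lists that did not pass, and genes with the spaced motif, were named after their values were seen. MSRB1 of the thioredoxin list had no matching row. Positions are from GENCODE on GRCh37 and promoter windows from RefSeq on GRCh38.p14, where all 7 genes matched.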

Additional observations from a re-analysis of the deposited data

Results flagged for a closer look

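For 39 sets of 8 values, the lowest or the highest value was compared with its nearest neighbour, and 2 stood apart by Dixon's 95% criterion, where chance gives about 1 in 20. Both were changes in HCC70. ARRDC3 had a log2 change of -2.11 there against -0.81 to -0.08 in the other 7 lines, a gap of 0.641 of the whole range. MLXIPL had a change of -1.57, a gap of 0.583 of the range, which rests on 4 reads with DMSO and 1 read with TLT.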

How the results depend on the processing

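Over 19 alternatives the sign of the change was kept for TXNIP (-2.38 to -1.55), ARRDC2, ARRDC3, ARRDC4, MLXIP and MLX, and it turned for MLXIPL in 4 of the 18 that kept it. Without the replicate block, which ignores the pairing by line, 7 genes passed instead of 3774, all 7 higher (517 at an unadjusted p under 0.05), and every list count was 0; this design was not the one the labels give. Called genes numbered 1377 in the MDA-MB lines only, 170 in the HCC lines only, and between 2421 (MDA-MB-436 left out) and 3898 (HCC38 left out) with 7 lines. The counts of calls per list were as follows. For glucose-responsive targets they were 1 with a mean of at least 100, 0 in the HCC lines and 3 to 4 with a line left out. For the thioredoxin system they were 3 under quantile normalization and 3 without trend, 1 in the MDA-MB lines, 1 in the HCC lines and 3 to 8 with a line left out. For glucose transporters and hexokinases they were 1 in the MDA-MB lines, 1 in the HCC lines and 2 to 5 with a line left out. For other arrestin genes they were 1 under quantile normalization, with a pseudocount of 0.1, without a filter and without trend, 0 in either lane and 1 to 2 with a line left out. For NEDD4 family ligases they were 1 in the MDA-MB lines, 0 in the HCC lines and 3 to 4 with a line left out, and for the MYC and MAX network 0 in the HCC lines and 3 to 4 with a line left out. Each lane holds only 4 pairs. The genes that differed between subtypes with DMSO numbered 7 with a pseudocount of 10 and 0 to 221 with a line left out. The difference in response turned sign under median-of-ratios scaling for MLXIP (-0.0033) and MLX (-0.0033), and with a line left out it ran from -0.0947 to 0.107 for MLXIP, -0.13 to 0.15 for MLX, -0.35 to 0.33 for ARRDC3 and -0.0654 to 0.654 for MLXIPL. The difference in DMSO level of MLXIPL ran from -0.67 to 0.43. The named genes of the lists lost their call in 71 cases and changed sign in 0. The causes were not tested. Depth limits ARRDC4 in HCC1143 and MDA-MB-468, TXNIP in MDA-MB-468 and MLXIPL in every line.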
